A study of Rattus norvegicus with 4 samples.

Results

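Nppa and Nppb, the genes of atrial and B-type natriuretic peptide, were followed in myocytes cultured from the ventricles of neonatal rats, that is, beating muscle cells taken from the newborn heart. The members were taken by gene symbol: every probe set whose single symbol in the platform annotation is Nppa or Nppb. There was 1 probe set for each gene, 1367564_at for Nppa and 1367616_at for Nppb, so 2 of the 15875 probe sets in the table and 2 of 10411 named genes. Fibronectin replicates 1 and 2 were myocytes in dishes coated with fibronectin, a matrix glycoprotein bound by integrin receptors, and control replicates 1 and 2 were myocytes in uncoated dishes. All 4 samples spent 24 h in medium with 10% serum and the next 48 h without serum, and total RNA of each was hybridised to 1 Affymetrix rat array. The labels give no strain, sex or exact age of the animals, and they do not say whether replicates came from separate cultures, so the spread between arrays may be technical. The study's title concerns hypertrophy, and the comparison asked whether these transcripts differ between coated and uncoated dishes.

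Natriuretic peptides are hormones made by the muscle cells of the heart. The precursors are cut by proteases such as corin and furin, and the released peptides act on the membrane guanylyl cyclase encoded by Npr1, which raises cyclic GMP and thereby lowers blood volume and pressure. Both genes are active in the fetal ventricle, become quieter in the ventricle after birth while Nppa stays high in the atria, and are widely used as markers of hypertrophy and wall stress because they are switched on again there.

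The promoters of the pair are shown because the genes are direct neighbours with no protein-coding gene annotated between them, and their signals were both higher on fibronectin. The sequences are RefSeq's for the GRCr8 rat assembly, each read 5′ to 3′ on the plus strand and ending before the first annotated base of the gene, Nppa at chr5:163711934-163712183 and Nppb at chr5:163699758-163699954. Capitals mark letter matches on either strand to TGATAA or AGATAA (bound by GATA factors), AAGTG (the core bound by Nkx2-5), CATTCC (the M-CAT element bound by TEAD factors) and TATAAA.
Nppa promoter: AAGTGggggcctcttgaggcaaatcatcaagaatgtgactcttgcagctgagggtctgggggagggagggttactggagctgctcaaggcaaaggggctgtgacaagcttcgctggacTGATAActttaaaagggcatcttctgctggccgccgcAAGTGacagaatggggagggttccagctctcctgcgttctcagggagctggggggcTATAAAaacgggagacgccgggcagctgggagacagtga
Nppb promoter: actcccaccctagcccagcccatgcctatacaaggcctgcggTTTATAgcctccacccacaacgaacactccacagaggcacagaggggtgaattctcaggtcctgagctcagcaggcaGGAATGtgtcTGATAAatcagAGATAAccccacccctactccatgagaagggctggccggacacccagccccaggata
Positions count back from the start that the promoter table uses, which for Nppb lies beyond the printed end because another transcript model begins earlier. Both stretches hold TGATAA, 127 to 132 bases before the RefSeq start of Nppa and 116 to 121 bases before that of Nppb. Among 33469 rat promoters, 7.97% held TGATAA on either strand in the 250 bases before the start. Nppb held AGATAA as well, 105 to 110 bases before the start, which 10.3% of promoters had. CATTCC was found only for Nppb, on the minus strand at 126 to 131 bases (12.1% of promoters), and AAGTG only for Nppa, at 246 to 250 and at 91 to 95 bases (40.6% of promoters). TATAAA lay 34 to 39 bases before the start of Nppa and, on the minus strand, 203 to 208 bases before that of Nppb (12.9% of promoters). The AP-1 motif TGANTCA (6.34% of promoters) and the strict CArG box CCWWWWWWGG, with W for A or T (1.5%), had no match in either 250-base window. Looser forms were not searched for, so near matches such as ctttaaaagg, which follows TGATAA in the Nppa stretch, were not counted. A match is a string of letters, and no binding was measured.

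Nppa had deposited signals of 12861 and 11603 on fibronectin replicates 1 and 2, against 4791.5 and 1899 on control replicates 1 and 2. After quantile normalization, which gives all arrays the same distribution of signals, it measured 11106 and 9159 on fibronectin and 5712 and 2299 on uncoated dishes. The groups did not overlap on either scale. The lowest fibronectin value exceeded the highest control value 2.42-fold as deposited and 1.60-fold after normalization. The fibronectin arrays lay close together, while control replicate 1 stood 2.48-fold above control replicate 2 on the normalized scale. Of the 105 tested probe sets at least as bright as Nppa, Nppa had the gap of rank 2 between the controls.

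Nppb showed the opposite pattern of spread. Its deposited signals were 2674 and 5403 on fibronectin replicates 1 and 2, against 1481.5 and 1316 on control replicates 1 and 2. The normalized signals were 2217 and 5096 on fibronectin, against 1459 and 1539 on uncoated dishes. The controls differed 1.05-fold on the normalized scale, whereas fibronectin replicate 2 stood 2.30-fold above fibronectin replicate 1. The groups again did not overlap, and the lowest fibronectin value exceeded the highest control value 1.81-fold as deposited and 1.44-fold after normalization. Over all 9519 tested probe sets, both fibronectin arrays lay above both controls for 19.3%, and for 3.42% they did so with a log2 difference of at least 1, as for both members. The 2 genes, chosen with earlier results known, are too few to set against that share.

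**Figure D1:**
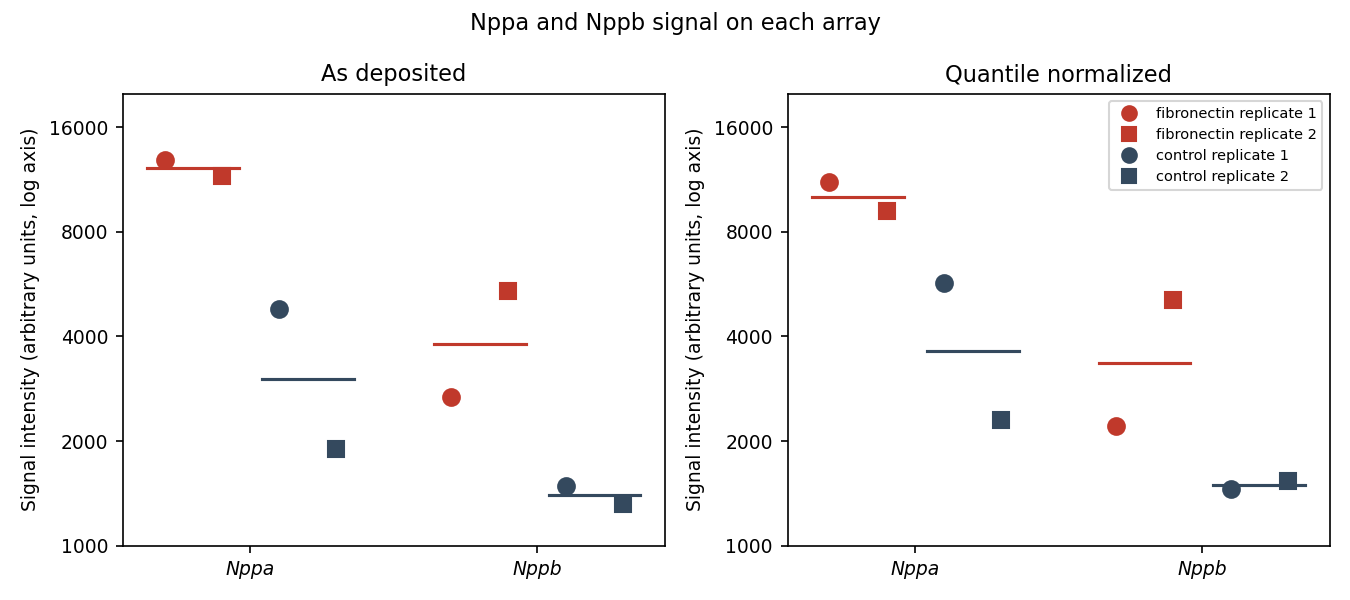
Signal intensity (log axis, arbitrary units) of Nppa and Nppb on each of the 4 arrays, as deposited (left) and quantile normalized (right), with fibronectin arrays left of controls and horizontal lines at the mean log2 signal of each group. Both fibronectin values exceed both control values for each gene, with the wide gap between the controls for Nppa (5712 and 2299 after normalization) and between the fibronectin arrays for Nppb (2217 and 5096).

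Nppa averaged 13.30 ± 0.20 on fibronectin and 11.82 ± 0.93 on uncoated dishes (normalized log2 signal, SD, n = 2 each), a difference of 1.48 (SE 0.42) or 2.78-fold. Nppb averaged 11.71 ± 0.85 on fibronectin and 10.55 ± 0.05 on uncoated dishes (normalized log2 signal, SD, n = 2 each), a difference of 1.17 (SE 0.40) or 2.24-fold. Neither passed the threshold of 0.05 in limma, a linear model fitted over all 9519 tested probe sets, with Benjamini-Hochberg adjusted p = 0.684 for Nppa and 0.718 for Nppb. Of the 9519 probe sets limma called 0% at that threshold, and 616 (6.47%) had an unadjusted p under 0.05. By that p, Nppa ranked 111 and Nppb 248. In an exact two-sided permutation test over arrays both genes had p = 0.333, the smallest that 2 arrays against 2 can give.

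On the deposited scale the log2 differences were larger, at 2.02 for Nppa (4.05-fold) and 1.45 for Nppb (2.72-fold). That increase was not particular to the members. All 8 tested ventricular myocyte markers were positive as deposited, with a median of 0.71, against 0.11 after normalization. The highest deposited signal was 20942 and 42047 on fibronectin replicates 1 and 2, against 14964.5 and 14992 on control replicates 1 and 2. Shifting every array to the same median gave 1.97 for Nppa and 1.40 for Nppb. The size of each difference depended on the array left out. For Nppa the log2 difference was 2.13 without control replicate 1, with a limma adjusted p = 0.0249, and 0.82 without control replicate 2, with an adjusted p of 1.00. It was 1.34 without fibronectin replicate 1 and 1.62 without fibronectin replicate 2, below the threshold in neither fit. For Nppb the log2 difference was 1.77 without fibronectin replicate 1, with a limma adjusted p = 0.0369, and 0.56 without fibronectin replicate 2, with an adjusted p of 0.667. Leaving out control replicate 1 or 2 gave 1.13 and 1.20 for Nppb. These fits assume that the lone array of a group varies like the other group. Their differences could only lie above 0, because both fibronectin arrays lay above both controls for each gene.

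**Figure D2:**
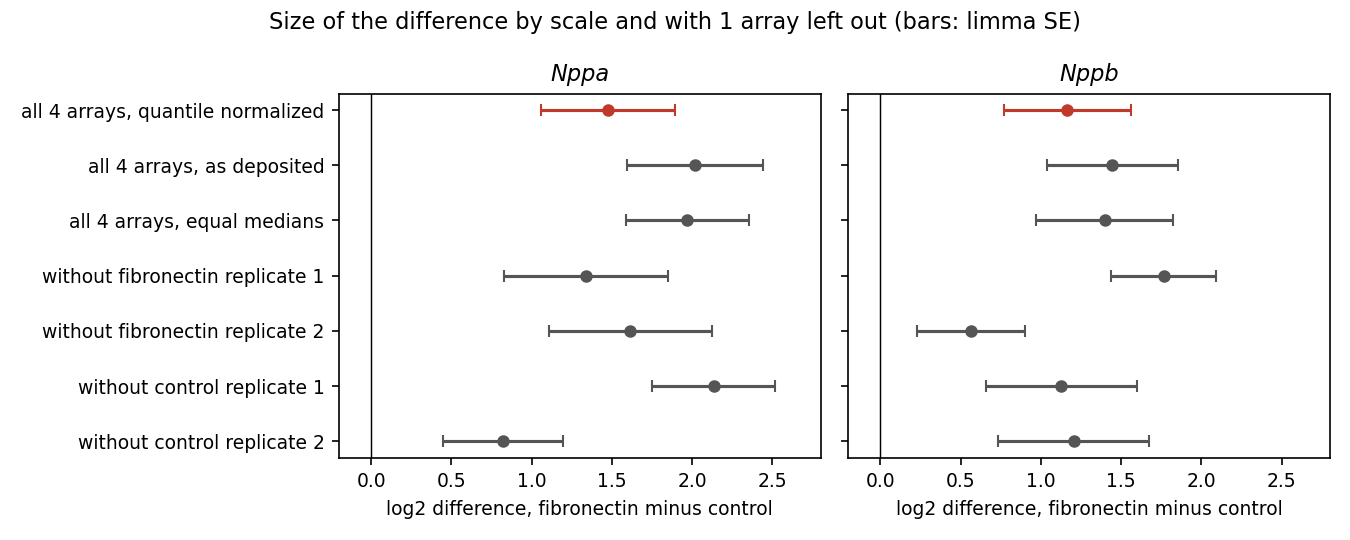
log2 difference of Nppa (left) and Nppb (right), fibronectin minus control, with all 4 arrays on 3 scales and with each array left out in turn. Points are the difference and bars limma's SE. Every point lies right of 0, with Nppa between 0.82 and 2.13 and Nppb between 0.56 and 1.77. For the points with 1 array left out no other sign was possible, because the groups do not overlap.

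No difference between the 2 genes in the size of their change was detectable with 4 arrays. The difference of Nppa exceeded that of Nppb by 0.31 on the normalized log2 scale, with an exact two-sided permutation p = 0.667 over the 4 arrays. It was 0.57 on the deposited scale, and it was negative when control replicate 2 (-0.38) or fibronectin replicate 1 (-0.43) was left out.

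Differences were small among bright probe sets, and the members stood at the upper edge. By deposited signal, Nppa ranked 34 and 59 among 15866 probe sets on fibronectin replicates 1 and 2, against 121 and 310 on control replicates 1 and 2. Nppb ranked 324 and 139 on fibronectin, against 510 and 480 on uncoated dishes. These ranks order probe set signals, not transcript numbers. Among all 9519 tested probe sets, the positive log2 difference ranked 71 for Nppa and 218 for Nppb. Among the 105 tested probe sets at least as bright as Nppa, its difference ranked 1, where the median difference was 0.07 and 27 had both fibronectin arrays above both controls. Among the 296 at least as bright as Nppb, a set that includes Nppa, Nppb ranked 2 behind it, where the median difference was 0.09 and 77 had both fibronectin arrays above both controls. Nppa kept rank 1 on the deposited scale and without each array in turn. Nppb ranked 4 on the deposited scale and 58 of 416 without fibronectin replicate 2.

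**Figure D3:**
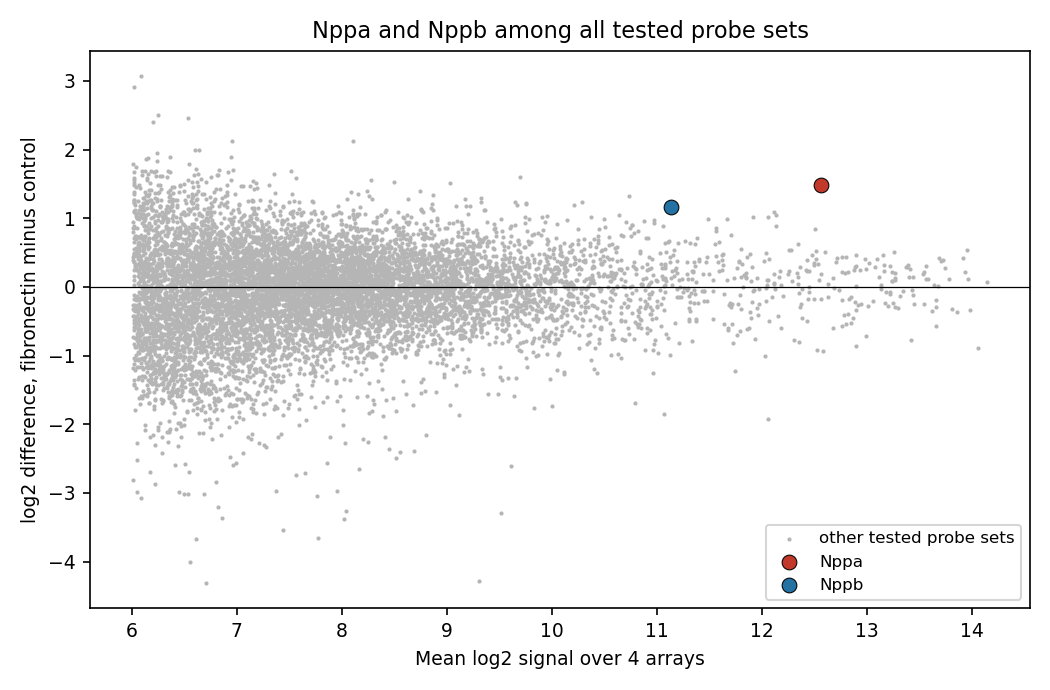
Mean log2 signal over 4 arrays (x axis) against the log2 difference, fibronectin minus control (y axis), for the 9519 tested probe sets, with Nppa in red and Nppb in blue. Differences narrow toward bright signals, and Nppa at 1.48 and Nppb at 1.17 lie at the upper edge of the bright range.

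Counted by its brightest tested probe set, none of 30 other genes, 14 of the peptides' pathway and 16 cardiac regulators, had a positive difference as large as that of Nppa or Nppb. That count leaves out probe sets too dim to be tested. Among these, a probe set of Npr1 differed by 1.49, more than both members, and another, of Gucy1b1, by 1.42, more than Nppb. Others of Ide, Pde3a and Prkg2 differed by -2.55, -1.40 and -1.22. Of 7 ligand, receptor and clearance genes, all had a probe set but only 4 were bright enough to be tested, and 0 passed limma's adjusted threshold in either direction. Their median log2 difference was 0.17, with 1 gene above without overlap and 0 below, against 20.6% and 17.2% of 7101 genes each counted by its brightest tested probe set, with a median of 0.02 over those genes. The other lists are counted in the same way, and on the deposited scale these shares were 22.0% and 10.6%. Npr1, the receptor of both peptides, measured 6.86 and 5.22 on fibronectin replicates 1 and 2 (normalized log2 signal), while both controls were at the floor of 4.55, to which the lowest 20% of all signals were raised. With the controls raised to the floor, the mean of Npr1 was 2.82-fold higher on fibronectin. That size rested mostly on fibronectin replicate 1, as replicate 2 lay near the floor, and Npr1 was left out of the test as dim. Its deposited signals were 127 and 31.2 on fibronectin and 22.8 and 19.4 on uncoated dishes.

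The remaining receptors were dim or alike in the groups. Npr2, the receptor of C-type peptide, measured 6.93 and 7.61 on fibronectin and 6.90 and 7.75 on uncoated dishes, a difference of -0.05 (SE 0.50). Npr3, the clearance receptor, was at the floor on all 4 arrays. Nppc, the gene of C-type natriuretic peptide, measured 5.18 and the floor on fibronectin replicates 1 and 2, against 5.08 and 5.50 on uncoated dishes, and was also left out as dim. Among the peptidases, Mme, which encodes neprilysin, measured 6.74 and 5.02 on fibronectin and 6.83 and 6.33 on uncoated dishes, with overlap. Ide, the insulin-degrading enzyme that also cuts natriuretic peptides, had a brightest probe set with a difference of 0.39 (SE 0.31), whose groups overlapped on the deposited scale. Its other probe sets went the other way, at -1.55 (SE 0.79) and, in 1 left out as dim, at the floor on both fibronectin arrays against 7.18 and 7.02 on uncoated dishes. Dpp4, a dipeptidyl peptidase that trims B-type peptide, differed by 0.61 (SE 0.69) with overlap, and by -0.63 in a probe set left out as dim.

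After normalization, no tested gene of precursor processing and the secretory granule lay above without overlap. Of 8 listed genes 7 had a probe set and 4 were tested; 0 passed limma's adjusted threshold, 0 lay above without overlap and 1 lay below, with a median log2 difference of -0.17 (0.08 on the deposited scale, so the sign depends on the scaling). Corin, the main protease of the Nppa precursor, had no probe set under its name here and was not analysed. Furin, the protease that cuts the Nppb precursor, measured 8.38 and 9.14 on fibronectin and 8.38 and 8.40 on uncoated dishes, a difference of 0.36 (SE 0.38). As deposited, Furin lay above without overlap, at 410 and 456 on fibronectin and 363.5 and 289 on uncoated dishes. It was the 1 gene of the 4 tested to do so on that scale (25%, against 22.0% of all genes), with 0 below. Pam, the amidating enzyme that is a main membrane protein of atrial granules, measured 10.98 and 11.29 on fibronectin and 11.77 and 11.21 on uncoated dishes, a difference of -0.35 (SE 0.30), and its 2 dimmer probe sets were left out. Pcsk6, a proprotein convertase known to activate corin, measured 7.62 and 7.55 on fibronectin and 7.89 and 7.88 on uncoated dishes, below without overlap and by -0.30 (SE 0.37), but with overlap on the deposited scale. Cpe, a carboxypeptidase of secretory granules, differed by -0.04 (SE 0.51). The granins Chga, Chgb and Scg2 were left out as dim: Chga was at the floor on all 4 arrays, Scg2 on all but fibronectin replicate 2 at 5.66, and Chgb reached 5.30 and 5.02 on fibronectin against the floor and 4.97 on uncoated dishes.

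Downstream, 6 of 12 genes of cyclic GMP synthesis, breakdown and action were tested, with 11 having a probe set. None passed limma's adjusted threshold, 1 was above and 1 below without overlap, and the median log2 difference was 0.24. Vasp, an actin regulator phosphorylated by the cyclic GMP dependent kinase, measured 9.71 and 9.45 on fibronectin and 9.12 and 9.28 on uncoated dishes, a difference of 0.38 (SE 0.30). Its groups overlapped on the deposited scale, as did those of Gucy1a1. Gucy1a1, a subunit of the soluble guanylyl cyclase, measured 7.62 and the floor on fibronectin replicates 1 and 2, against 7.68 and 7.97 on uncoated dishes, so its difference of -1.74 (SE 0.91) rested on fibronectin replicate 2. Its dimmer probe set, left out of the test, overlapped between the groups.

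**Figure D4:**
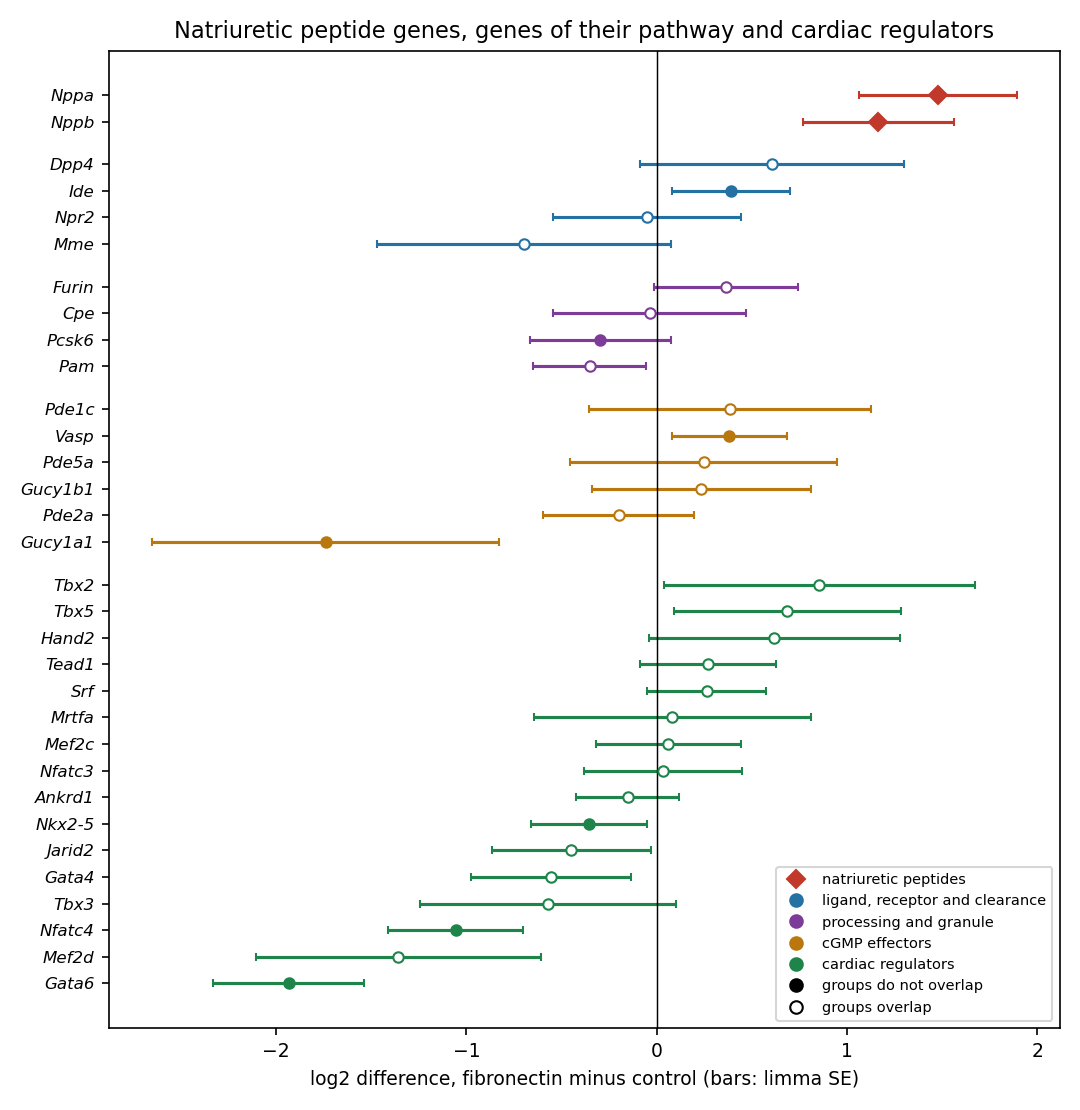
log2 difference, fibronectin minus control, of Nppa, Nppb and the 30 tested genes of the ligand, receptor and clearance list, the processing and granule list, the cyclic GMP list and the cardiac regulator list (brightest tested probe set of each gene). Points are differences, bars limma's SE, and filled circles mark genes whose groups do not overlap; Nppa at 1.48 and Nppb at 1.17 lie to the right of all 30.

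Transcription factors and cofactors known to act on these promoters were divided in sign. Of 27 listed regulators 21 had a probe set and 16 were tested, 8 with a positive and 8 with a negative difference, with a median of -0.06 (0.06 on the deposited scale). None passed limma's adjusted threshold. By brightest probe set, 0 were above and 3 below without overlap after normalization (0% and 18.8%, against 20.6% and 17.2% of all 7101 genes). As deposited, 1 was above and 3 below (6.25% and 18.8%, against 22.0% and 10.6%). The 1 above was Srf, serum response factor, at 1067 and 1046 on fibronectin and 950 and 666 on uncoated dishes. Mef2d, a MADS box factor, had a dimmer tested probe set above without overlap, at 6.60 and 7.26 on fibronectin and 6.24 and 6.25 on uncoated dishes, a difference of 0.68 (SE 0.56), while its brightest one differed by -1.36 (SE 0.75) with overlap. Dimmer tested probe sets of Hand2, Ankrd1 and Mef2c lay below without overlap, by -1.17 (SE 0.51), -1.25 (SE 0.26) and -0.49 (SE 0.39). The brightest ones of these genes overlapped, at 0.62 (SE 0.66), -0.15 (SE 0.27) and 0.06 (SE 0.38). Gata6, a zinc finger factor of the GATA family, measured 6.82 and 6.57 on fibronectin and 8.41 and 8.85 on uncoated dishes, a difference of -1.94 (SE 0.40), while its dimmer probe set differed by 0.80 (SE 0.78). Nfatc4, a target of calcineurin, measured 7.68 and 8.10 on fibronectin and 8.81 and 9.08 on uncoated dishes, a difference of -1.06 (SE 0.35). Nkx2-5, the cardiac homeobox factor, measured 9.18 and 9.14 on fibronectin and 9.68 and 9.36 on uncoated dishes, a difference of -0.36 (SE 0.30), with overlap on the deposited scale. Gata4, the partner of Nkx2-5 at the Nppa promoter, overlapped between the groups after normalization, at 8.72 and 9.89 on fibronectin and 9.71 and 10.01 on uncoated dishes. As deposited, Gata4 lay below without overlap, at 529 and 787 on fibronectin and 904 and 866 on uncoated dishes. These are transcript levels, and the activity of the proteins was not measured.

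Among the genes that are commonly read beside Nppa and Nppb as fetal or hypertrophy markers, 9 of 10 were tested and 0 passed limma's adjusted threshold, with 2 above and 1 below without overlap and a median log2 difference of 0.11, each gene counted by its brightest probe set. On the deposited scale 5 were above and 0 below (55.6% and 0%, against 22.0% and 10.6% of all 7101 genes). The median on that scale was 0.37, against 0.09 over all genes and 0.71 over 8 tested ventricular myocyte markers, which share Myh6 and Myh7 with this list. Acta1, skeletal alpha-actin, measured 11.80 and 12.15 on fibronectin and 10.87 and 11.45 on uncoated dishes. Xirp1, an actin-binding protein of the intercalated disc, measured 9.08 and 9.42 on fibronectin and 8.82 and 8.61 on uncoated dishes, a difference of 0.54 (SE 0.32). Atp2a2, which returns calcium to the sarcoplasmic reticulum, lay below without overlap, at 12.30 and 11.94 on fibronectin and 13.43 and 12.68 on uncoated dishes, a difference of -0.94 (SE 0.32). Its deposited signals overlapped, at 6359 and 4086 on fibronectin and 7911 and 5158 on uncoated dishes, a log2 difference of -0.33. The probe sets of some genes disagreed. The brightest probe set of Myh7, the slow beta-myosin heavy chain, had a difference of 0.11 (SE 0.24), but the dimmer one lay below without overlap, at 6.75 and 8.99 on fibronectin and 10.74 and 11.58 on uncoated dishes (-3.29, SE 0.68). Ankrd1, a stretch-responsive ankyrin repeat protein, differed by -0.15 (SE 0.27) in its brightest probe set and by -1.25 (SE 0.26) in a dimmer one, at 10.30 and 10.39 on fibronectin and 11.57 and 11.61 on uncoated dishes, without overlap. Both dimmer probe sets had a limma adjusted p = 0.528. By brightest probe set, the differences of the 9 genes were all smaller than those of Nppa and Nppb in the positive direction.

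The chromosomal neighbours all had smaller positive differences than the members, or negative ones. Of the 5 protein-coding genes on each side of the pair, 5 had a probe set in all. On the Nppb side, Mfn2, a GTPase of mitochondrial fusion, measured 9.35 and 9.11 on fibronectin and 8.82 and 8.54 on uncoated dishes, a difference of 0.55 (SE 0.32) without overlap, though its deposited signals overlapped. Plod1, a lysyl hydroxylase of collagen, differed by 0.23 (SE 0.36), and 2510039O18Rikl, the gene next to Nppb, by -0.57 (SE 0.42), both with overlap. On the Nppa side, Clcn6, the next gene, encodes an endosomal chloride transporter and differed by -0.44 (SE 0.74) with overlap. Agtrap, whose product binds the angiotensin receptor, was left out as dim, at 5.50 and the floor on fibronectin replicates 1 and 2 and at 6.96 and 6.64 on uncoated dishes. None of the 4 tested neighbours passed limma's adjusted threshold.

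The 2 members did not have each other as nearest match over the arrays. Likeness was the root mean square distance between log2 profiles over the 4 arrays, each centred on its own mean, among 8071 tested probe sets with 1 gene symbol. The 5 profiles nearest to Nppa were those of Tmem141, Polr1e, Cryl1, Zmpste24 and Pdcd2l, at distances of 0.11 to 0.17. Those nearest to Nppb were LOC102555451, Alb, Aaas, Timm22 and Vps37a, at 0.01 to 0.06. All 10 were dim, with mean log2 signals of 6.03 to 7.54, against 12.56 for Nppa and 11.13 for Nppb. From Nppa, Nppb was at place 1449 with a distance of 0.73, and from Nppb, Nppa was at place 3486. These distances describe 4 points on shared arrays.

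The labelled cell type fitted its markers, apart from Irx4, but some fibroblast markers were as bright, and some markers of other cells differed between the groups. On uncoated dishes the brightest probe sets of Col1a1 and Col3a1 averaged 13.81 and 13.35 (normalized log2 signal), beside 13.73 for Myh7, while Thy1 averaged 6.34. In bulk RNA, fewer cells of a type and less RNA per cell cannot be told apart. Of 10 ventricular myocyte markers 8 were tested, and their summed normalized signal was 62062 to 64083 on fibronectin and 58041 to 66168 on uncoated dishes. As deposited, the sum was 73541 and 85925 on fibronectin replicates 1 and 2, against 48725 and 45489 on uncoated dishes, so these groups overlapped only after normalization. Myl2, the ventricular light chain, measured 13.77 and 14.28 on fibronectin and 14.03 and 13.79 on uncoated dishes, with the list, by brightest probe set, running from Pln, phospholamban, at -0.52 (SE 0.30) to Ryr2, the calcium release channel, at 0.97 (SE 0.54), apart from Myh7's dimmer probe set at -3.29. The ventricular factor Irx4 reached 5.14 on fibronectin replicate 1 and was at the floor on the other arrays. Atrial markers matter here because atrial cells hold much Nppa; 6 of 8 were tested, and their sum was 2820 to 4576 on fibronectin and 3441 to 3984 on uncoated dishes. Myl4, an atrial and fetal light chain, was highest at 0.41 (SE 0.29), with 10.52 and 10.32 on fibronectin and 9.85 and 10.18 on uncoated dishes. Kcnj3, an atrial potassium channel subunit, was lowest at -1.13 (SE 0.58), with 6.82 and 5.70 on fibronectin and 7.71 and 7.08 on uncoated dishes. Its other probe sets overlapped between the groups, a tested one at -0.14 (SE 0.62) and a dim one left out of the test at 0.58. Myl7, the atrial regulatory light chain, overlapped, at 10.39 and 8.70 on fibronectin and 10.04 and 9.11 on uncoated dishes, as did Sln, sarcolipin, at 8.30 and 5.56 on fibronectin and 7.76 and 6.50 on uncoated dishes.

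Fibroblast markers had negative differences in 8 of 10 tested genes, against 3449 of all 7101 genes, with 5 below without overlap (50%, against 17.2% of all genes). They summed to 18505 to 30799 on fibronectin and 31815 to 47971 on uncoated dishes, and their median log2 difference was -0.75. The separation of the sums depended on the scale. As deposited, the sums overlapped, at 22535 and 38083 on fibronectin and 25613 and 37493 on uncoated dishes, with 7 of 10 genes negative, 3 below without overlap and a median of -0.28. The extremes after normalization, by brightest probe set, were Dcn, decorin, at -1.57 (SE 0.41) and Ddr2, a collagen receptor, at 0.17 (SE 0.36). A dimmer tested probe set of Ddr2 lay above without overlap, at 0.66 (SE 0.45). The leukocyte and neural sums did not overlap on either scale. Leukocyte markers summed to 993 to 1005 on fibronectin and 1394 to 1727 on uncoated dishes over 6 of 8 genes, with Aif1 lowest at -1.80 (SE 0.86), C1qa highest at 0.09 (SE 0.54) and Ptprc, their common antigen, at or near the floor throughout. Neural and Schwann markers summed to 517 to 682 on fibronectin and 210 to 345 on uncoated dishes over 2 of 7 genes, Prph at 1.65 (SE 0.80) and Cnp at 1.01 (SE 0.37) but at -1.78 (SE 0.74) in its dimmer probe set, with Ngfr at the floor on all 4 arrays. S100b, left out as dim, overlapped, at 6.68 and the floor on fibronectin replicates 1 and 2 and 6.20 and 5.80 on uncoated dishes. Sox10 was at the floor on all but fibronectin replicate 2, at 4.83. The sums of the 2 tested endothelial markers (229 to 290 on fibronectin, 228 to 348 on uncoated dishes), of 6 smooth muscle and pericyte markers (4119 to 6703 on fibronectin, 3610 to 8798 on uncoated dishes) and of 5 proliferation markers (1178 to 1817 on fibronectin, 1136 to 1333 on uncoated dishes) overlapped between the groups. Their extremes were Kdr at 0.26 and Esam at -0.34, Cnn1 at 1.09 and Acta2 at -0.49, and Cdk1 at 0.43 and Top2a at -0.40, in the same order of lists. The part of these cells in the result for Nppa and Nppb was not tested.

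RNA quality controls also differed between the groups. The ratio of 3′ to 5′ signal was 6.02 and 3.52 for Gapdh on fibronectin replicates 1 and 2, against 1.64 and 1.15 on control replicates 1 and 2, and 13.0 and 6.29 for beta-actin, against 1.46 and 1.40. For hexokinase it was 3.11 and 7.0 on fibronectin and 3.77 and 4.12 on uncoated dishes. Fibronectin replicate 2, the array with the highest Nppb signal, correlated less with the other arrays (r = 0.77 to 0.79 across tested probe sets, which are not independent) than those did with one another (0.85 to 0.91). The part of RNA quality in the result for Nppa and Nppb was not tested.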

How the data were processed

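Signals of 4 arrays, 2 per group by the labels' titles, were analysed. The deposited table holds 1 linear signal intensity per probe set and array; the steps by which the authors made these intensities are not given in the sources used here. Lattice steps in the values point to separate scaling of 3 arrays, all but control replicate 1. The step was 0.1 and 0.233 on control replicates 1 and 2. It was 0.223 and 1.95 on fibronectin replicates 1 and 2, so low values of fibronectin replicate 2 are the coarsest. After joint quantile normalization, values were raised to a floor at the 20th percentile (23.4) and converted to log2. The 9 Affymetrix control probe sets and the 40% with the lowest mean were left out, leaving 9519 tested with limma 3.58.1 (lmFit, then eBayes with trend) in R 4.3.3, with Benjamini-Hochberg adjustment; the step was tested on simulated data. SEs are limma's moderated ones. No detection calls were used, and the number of arrays limits the precision. Gene names came from the platform annotation. Promoters were RefSeq's. Members, lists and tests were chosen with earlier results of these data known. Named genes were the members, all measured genes of the ligand and granule lists, up to 4 members in each direction without overlap of the other lists, neighbours, the 5 nearest profiles and the extreme cell type markers. Alternatives were other scales, filters, floors, variance models, a replicate block and leaving out each array.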

Additional observations from a re-analysis of the deposited data

How the results depend on the processing

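The differences of Nppa and Nppb kept their sign under all 13 alternatives and stayed on the same side of the threshold except under a replicate block and with 1 array left out. The sign could not change with 1 array left out, because both fibronectin arrays lay above both controls. The block, the filters and the variance models leave the difference itself as it is. With the replicate number as a block, limma's Benjamini-Hochberg adjusted p was 6.63e-05 for Nppa, at a log2 difference of 1.48, and 0.00449 for Nppb, at 1.17, with 234 probe sets past the threshold in place of 0; deviations of same-numbered arrays correlated with r = 0.27, nothing in the labels says that the numbers pair the arrays, and the fit leaves 1 residual degree of freedom. Leaving out 1 array gave 0.82 to 2.13 for Nppa, 0.56 to 1.77 for Nppb and 0 to 337 probe sets past the threshold. The excess of Nppa's difference over Nppb's ran from -0.43 to 1.05 and was reversed without control replicate 2 (-0.38) and without fibronectin replicate 1 (-0.43). The rank of Nppb among probe sets at least as bright, an alternative added after seeing the data, was 4 on the deposited scale and 4 with equal medians, and ran from 1 to 58 with 1 array left out. The cause was not tested. The count with both fibronectin arrays above both controls ran from 1268 to 2553 with other scales, filters and floors. Both members lie far above the floor, so filters and floors changed their differences by at most 0.02.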
